A study of Homo sapiens with 18 samples.

Results

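Small nucleolar RNA host genes are genes whose introns carry small nucleolar RNAs (snoRNAs). They were taken here as every gene whose GENCODE symbol starts with SNHG and a digit, together with GAS5, ZFAS1 and EPB41L4A-AS1, which gave 31 genes. Of these, 26 had at least 1 intron among the deposited values, and 5 had none (SNHG9, SNHG18, SNHG19, SNHG22 and SNHG27). The 26 genes held 379 of the 233650 introns of the series, and 249 of those, in 62 clusters, passed the filter of a mean level between 0.01 and 0.99 over all libraries. In the whole series, 152722 introns passed it.

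SHEP.tet21n is a neuroblastoma cell line that carries a human MYCN cDNA, which doxycycline represses. All 6 groups were these cells, so MYCN here comes from a transgene. Every MYCN- library had doxycycline and no MYCN+ library did. Effects of MYCN and of doxycycline therefore cannot be told apart, also where a difference is named after MYCN below. Cells given 2 µg/mL doxycycline (MYCN-) or the DMSO vehicle (MYCN+) were transfected with a control siRNA (SNRPD3+) or with either of 2 siRNAs against SNRPD3 (SNRPD3- #1 and #2), a core protein of the spliceosomal small nuclear ribonucleoproteins. MYCN-/SNRPD3+ served as the wildtype reference, and each of the 6 groups had 3 libraries, 18 in all, of polyadenylated RNA. The labels do not say whether replicates came from separate cultures, while the study describes its replicates as biologically independent. P-values measure the spread between these libraries.

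The measure was the PSI of an intron, the percentage of the reads spanning any intron of its cluster that removed that intron. A cluster is a set of introns that share splice sites. PSI measures neither the amount of a host RNA nor the amount of a snoRNA nor intron retention, and an intron with no alternative has no PSI. The number of reads behind each PSI was not known, so only the spread between libraries is given as an error. A shift in every cell and a larger shift in some cells cannot be told apart. The knockdown of SNRPD3, the level of MYCN and markers of the cell type could not be checked from PSI.

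In mammals most snoRNAs lie inside introns. After splicing and debranching of the intron, the ends are trimmed up to the proteins bound to the snoRNA. Box C/D snoRNAs (SNORD) guide 2′-O-methylation of ribosomal RNA, and box H/ACA snoRNAs (SNORA) guide its pseudouridylation, while the small Cajal body RNAs (SCARNA) act on spliceosomal RNAs. The exons of many host genes encode no protein, their transcripts are subject to nonsense-mediated decay, and many of them start with a terminal oligopyrimidine tract. GAS5, ZFAS1 and SNHG1 have been studied as long non-coding RNAs in cancer. SNHG14 spans the imprinted Prader-Willi region and hosts tandem SNORD116 copies.

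Of the 249 introns tested, 210 matched an annotated intron of a host gene from end to end, and 143 contained an annotated snoRNA. SNHG14 alone gave 83 of them, SNHG17 23, SNHG4 13, and GAS5, SNHG20 and SNHG26 9 each. SNHG1, SNHG11, SNHG21, SNHG29 and SNHG32 had 8 each, SNHG16 and ZFAS1 7 each, and SNHG5 and SNHG12 6 each. SNHG6, SNHG7, SNHG8, SNHG10, SNHG15 and SNHG28 had 4 each, SNHG3, SNHG25 and SNHG31 3 each, and SNHG30 and EPB41L4A-AS1 2 each. Splice sites of 47 introns also belonged to another annotated gene, 13 of them SNHG4 introns shared with MATR3, 9 SNHG20 introns shared with SEC14L1 and 3 SNHG3 introns shared with RCC1, and such reads cannot be assigned to 1 gene. The SNORD116 copies of SNHG14 resemble each other closely, so reads there may be placed on the wrong copy. In 12 introns, of SNHG28, SNHG31, SNHG32 and SNHG14, some libraries had exactly the same value. The median length of the tested introns was 1159 bases, against 2514 over all tested introns.

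The sequences below are the exons whose skipping is described further on. They were read from GRCh38 and are written 5′ to 3′ on the strand of the gene, with the exon in capitals and 20 bases of intron on each side. SNHG1 exon 4 lies at chr11:62854888-62854938 on the minus strand, SNHG1 exon 6 at chr11:62854018-62854064 (minus), the 81-base SNHG5 exon at chr6:85677795-85677875 (minus), the 124-base SNHG4 exon at chr5:139279935-139280058 (plus) and ZFAS1 exon 4 at chr20:49280903-49280964 (plus).
SNHG1 exon 4: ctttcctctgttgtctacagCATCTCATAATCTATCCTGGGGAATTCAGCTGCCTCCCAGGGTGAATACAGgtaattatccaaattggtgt
SNHG1 exon 6: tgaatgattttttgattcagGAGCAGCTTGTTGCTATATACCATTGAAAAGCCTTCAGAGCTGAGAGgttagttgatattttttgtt
SNHG5 exon: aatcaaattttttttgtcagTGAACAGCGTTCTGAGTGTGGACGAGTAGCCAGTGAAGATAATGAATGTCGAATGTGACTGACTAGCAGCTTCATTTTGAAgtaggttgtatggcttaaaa
SNHG4 exon: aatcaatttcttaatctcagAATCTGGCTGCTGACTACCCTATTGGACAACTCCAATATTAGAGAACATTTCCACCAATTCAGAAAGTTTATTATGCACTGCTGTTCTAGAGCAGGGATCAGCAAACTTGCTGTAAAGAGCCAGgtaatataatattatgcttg
ZFAS1 exon 4: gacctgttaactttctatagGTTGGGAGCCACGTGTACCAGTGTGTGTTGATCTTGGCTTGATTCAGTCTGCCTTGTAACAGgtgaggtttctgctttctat

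Other introns differ by the choice between neighbouring splice sites. In the next sequences the bases between the sites are in capitals: between 5′ splice sites at the end of GAS5 exon 7 (chr1:173865451-173865529, minus) and of ZFAS1 exon 1 (chr20:49278697-49278758, plus), and between 3′ splice sites of SNHG32 (chr6:31836275-31836318, plus). In SNHG14 (chr15:25088568-25088627, plus) the capitals are the last bases of an intron whose 3′ splice site is not annotated.
GAS5 exon 7 end: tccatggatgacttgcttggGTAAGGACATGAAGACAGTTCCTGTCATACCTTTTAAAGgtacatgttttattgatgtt
ZFAS1 exon 1 end: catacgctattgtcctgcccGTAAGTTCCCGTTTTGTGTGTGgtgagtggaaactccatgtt
SNHG32 acceptors: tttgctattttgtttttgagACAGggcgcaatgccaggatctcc
SNHG14 acceptor: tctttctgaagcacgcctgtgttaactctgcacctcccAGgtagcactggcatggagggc

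SNORD27 (chr11:62855012-62855083, minus) and SNORD28 (chr11:62854621-62854695, minus) flank SNHG1 exon 4. Capitals mark the first TGATGA, the form of box C searched, and the last CTGA, box D, on the snoRNA strand alone. No TGATGA was found in SNORD28, which says only that these letters are absent from it. Of 313 annotated SNORD genes, 231 (73.8%) held TGATGA and 303 (96.8%) CTGA, against 348 (35.1%) and 706 (71.2%) of all 991 annotated snoRNAs and scaRNAs.
SNORD27: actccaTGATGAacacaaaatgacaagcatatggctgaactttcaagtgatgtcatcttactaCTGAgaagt
SNORD28: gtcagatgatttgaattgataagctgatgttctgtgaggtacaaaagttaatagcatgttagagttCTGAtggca

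The splice sites of the host genes were of the common kind. All 155 of their annotated 5′ splice sites started with GT and all 143 of their 3′ splice sites ended in AG. On average the 5′ splice sites matched the consensus CAGGTAAGT at 6.38 of 9 positions, against 6.32 over all 82932 sites, and 28 (18.1%) held GTAAGT, against 13%. Leaving out SNHG14, 20 SNORD genes in tested introns ended a median of 77.5 bases before the 3′ splice site, and 15 (75%) ended 60 to 100 bases before it. In the other snoRNA host genes, 11 of 45 (24.4%) did, with a median of 457 bases. Only GENCODE snoRNAs that lay alone in a tested annotated intron were measured, with the smallest distance for each. This left out all 11 snoRNAs of GAS5, which came from RefSeq, and the 45 are those that met these conditions among 337 other host genes. The difference between both sets was not tested. SNORD27 ended 73, SNORD28 69, SNORD12B of ZFAS1 75 and SNORD48 of SNHG32 84 bases before it. With SNHG14 included the median was 660.5 bases over 44 genes, and for 14 SNORA genes it was 657 bases.

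Levels differed widely between the genes. For each gene, the tested intron with the PSI nearest to 50% is given as the lowest, median and highest value over the 18 libraries. In GAS5 the intron lay at 50.3, 50.9 and 51.9%, in SNHG29 the values were 47.7, 49.7 and 50.8%, and in SNHG14 the intron with SNORD116-29 lay at 46.0, 49.2 and 53.5%. An exon included in nearly all reads gives each of its flanking introns a PSI near 50%. In SNHG1 the intron with SNORD29 lay at 43.1, 47.9 and 50.9%, in EPB41L4A-AS1 the intron with SNORA13 at 46.0, 50.9 and 54.0%, and in SNHG8 the values were 51.8, 52.9 and 57.4%. ZFAS1 gave 38.4, 40.2 and 42.1%, SNHG5 32.2, 34.8 and 36.9%, SNHG16 (SNORD1B) 28.1, 38.1 and 42.2%, and SNHG15 38.0, 41.7 and 45.8%.

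Higher levels were found for SNHG3 (94.7, 95.5 and 96.8%), SNHG30 (93.6, 97.5 and 99.3%), SNHG10 with SCARNA13 (81.2, 88.9 and 92.6%), SNHG25 (66.6, 80.5 and 92.9%) and SNHG7 (50.3, 80.1 and 90.5%). The other genes were SNHG20 (63.7, 72.9 and 78.4%), SNHG12 (62.9, 69.8 and 72.9%), SNHG11 (61.6, 67.9 and 83.5%), SNHG4 (57.0, 61.4 and 67.4%), SNHG26 (41.2, 58.6 and 78.5%), SNHG6 (41.5, 45.5 and 51.7%) and SNHG21 (31.4, 37.7 and 46.3%). The widest ranges were those of SNHG17 (0.877, 55.8 and 83.0%), SNHG28 (0.487, 27.9 and 98.0%), SNHG31 (0.887, 42.1 and 98.5%) and SNHG32 (0.282, 46.8 and 66.9%). Libraries of 1 group spread over most of these ranges in SNHG28, whose 18 libraries gave 16 different values, and SNHG31 gave 8 different values. Of these 26 introns, only that of SNHG32 was called in any comparison.

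**Figure D1:**
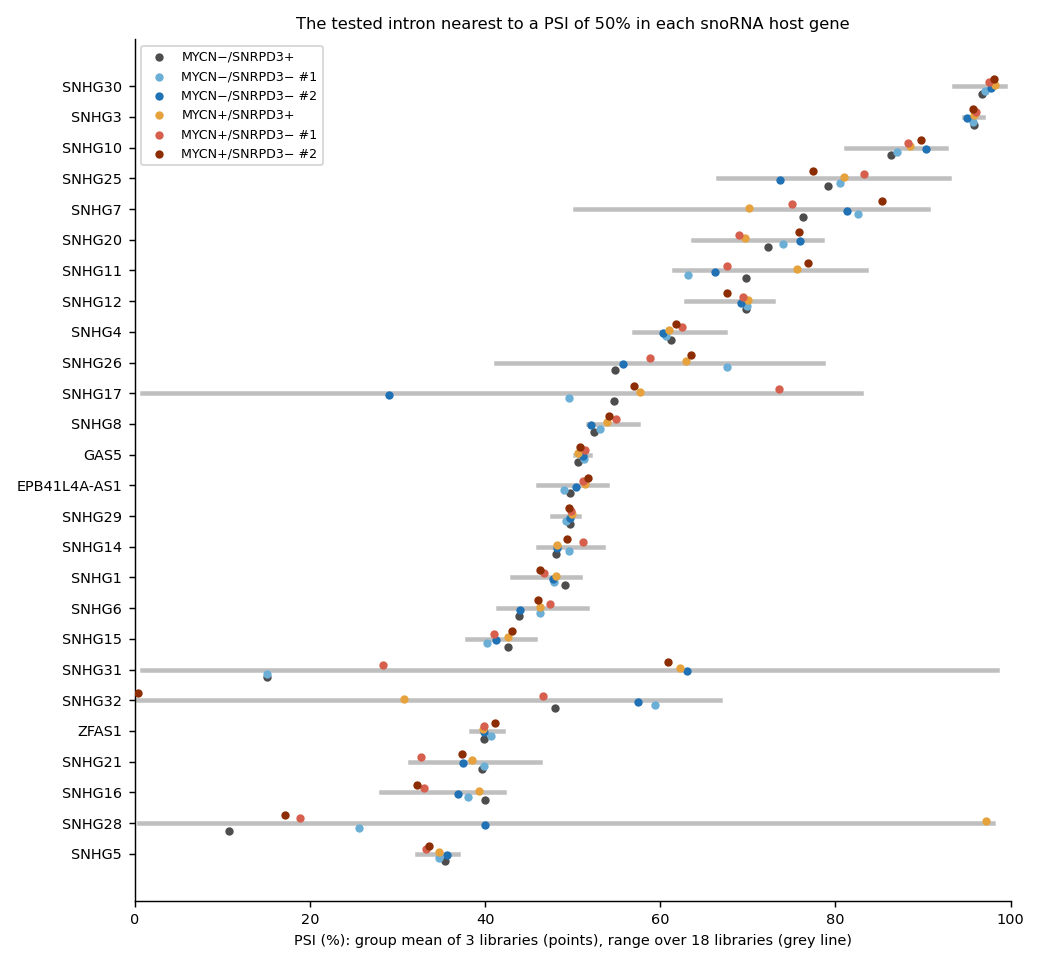
PSI (%, horizontal axis) of the tested intron nearest to 50% in each of the 26 host genes, with points for the group means of 3 libraries and a grey line for the range over 18 libraries. GAS5 spans 50.3 to 51.9%, whereas SNHG28 spans 0.487 to 98.0%.

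A share in this paragraph is summed PSI over the summed PSI of all introns of the gene. Clusters then weigh alike whatever their reads, so this is not a share of reads. Among the genes described here, introns that hold a snoRNA took most of the PSI of SNHG16, ZFAS1, GAS5 and SNHG1, and little of that of SNHG5. SNHG25, SNHG30, SNHG3 and SNHG10 had 100, 99.99, 99.6 and 94.5% in MYCN-/SNRPD3+, and SNHG28 and SNHG31 had 0%. In MYCN-/SNRPD3+ the share was 99.5% ± 0.0979 in SNHG16, 89.0% ± 0.764 in ZFAS1, 88.1% ± 0.105 in GAS5 and 80.6% ± 0.0172 in SNHG1 (SD, n = 3 for each). In SNHG5 it was 18.4% ± 0.351. In MYCN+/SNRPD3- #1 the same shares were 99.4% ± 0.0997, 91.4% ± 1.59, 88.6% ± 0.159, 81.2% ± 0.273 and 18.3% ± 0.496. These shares were not tested. Introns that match no annotated intron of a host gene took 0.607% ± 0.0152 of the PSI in GAS5 and none in SNHG1, SNHG5, SNHG15 and SNHG16. In SNHG21 they took 12.6% ± 2.25 and in SNHG4 7.02% ± 1.97 (all in MYCN-/SNRPD3+). Such introns can join annotated splice sites in a new way or be annotated only in an overlapping gene.

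Before the comparisons, 2 libraries have to be named. Over 12773 annotated single exons of all genes, a mean of 40.6% ± 0.104 of the splicing skipped the exon in MYCN-/SNRPD3+, 43.5% ± 1.36 in MYCN+/SNRPD3- #1 and 42.9% ± 1.07 in MYCN+/SNRPD3- #2 (SD, n = 3). Replicate 3 of the last 2 groups stood above the others, with 45.1% and 44.1%. By smaller margins, replicate 3 was also the highest of MYCN+/SNRPD3+ (41.63%), MYCN-/SNRPD3- #1 (42.13%) and MYCN-/SNRPD3- #2 (42.02%), and these were kept in all fits without the 2 named libraries. For the called introns, the exons described by name and the exon counts of the knockdown average, values without the 2 named libraries are given beside the main ones. The part of the 2 named libraries in the other results was not tested.

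Differences are given on the log2 odds scale, log2((PSI + 0.01)/(1 - PSI + 0.01)) with PSI as a fraction, as estimate ± SE from limma fitted to all 152722 introns and 18 libraries. P-values are Benjamini-Hochberg adjusted over all introns of a comparison, and an intron is called at an adjusted p under 0.05. The comparison groups share control libraries, so comparisons are not independent of each other.

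Few introns of the host genes were called, and none with SNRPD3 knockdown within 1 MYCN status. MYCN status alone, MYCN+/SNRPD3+ against MYCN-/SNRPD3+, gave 0 of 249 (background over all tested introns 0.0543%). Within MYCN-, siRNA #1 gave 0 (background 0.0105%) and siRNA #2 gave 0 (0.0151%), and within MYCN+ they gave 0 (0.0144%) and 0 (0.0164%). The 4 knockdown groups against both control siRNA groups gave 0 (0.0242%), and the interaction of knockdown with MYCN gave 0 (0.0177%). By unadjusted p under 0.05, limma gave 15, 15, 9, 30, 18, 34 and 9 introns in these 7 comparisons in the order given, where the background shares were 6.19, 4.54, 4.69, 7.25, 6.17, 7.8 and 3.98%. The 34 introns of the knockdown average were 13.7% of the 249, 19 of them higher and 15 lower.

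Against the wildtype group, MYCN+/SNRPD3- #1 gave 1 called intron (background 0.278%) and MYCN+/SNRPD3- #2 gave 1 (0.11%), both the same SNHG4 intron. The 3 MYCN+ groups against the 3 MYCN- groups gave 3 called introns, 2 higher and 1 lower, in SNHG4, SNHG14 and SNHG32. This is 1.2% of the 249, near the background of 1.23%. By unadjusted p, 39 (15.7%), 25 (10.0%) and 43 (17.3%) passed in these 3 comparisons, against 10.4, 9.19 and 11.7% of all introns. The median absolute difference was 0.16 for the host genes and 0.21 over all introns in the knockdown average, and 0.16 and 0.23 in the MYCN average.

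Introns with a snoRNA and introns without one were counted separately for the knockdown average. Of the 143 with a snoRNA, 24 (16.8%) had an unadjusted p under 0.05, 17 higher and 7 lower. Of the 106 without, 10 (9.43%) did, 2 higher and 8 lower. Over all introns 7.8% did, 6337 higher and 5569 lower. The difference between both kinds was not tested. SNHG14 gave 6 of the 34.

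The intron called in the most comparisons was SNHG4 intron 4 (chr5:139279130-139282738, plus), whose splice sites are shared with MATR3, the gene of a nuclear matrix RNA-binding protein. Its PSI was 4.20, 3.42 and 3.63% in MYCN-/SNRPD3+, 5.21, 4.81 and 3.71% in MYCN-/SNRPD3- #1, and 3.90, 4.84 and 4.18% in MYCN-/SNRPD3- #2. In MYCN+/SNRPD3+ it was 5.78, 7.20 and 6.70%, in MYCN+/SNRPD3- #1 8.14, 6.91 and 7.60%, and in MYCN+/SNRPD3- #2 6.97, 7.04 and 8.27%. All 9 MYCN+ libraries were above all 9 MYCN- libraries. The MYCN average was 0.70 ± 0.09 (limma, adjusted p = 0.00152), and the call held in all 18 fits that each left out 1 library, with adjusted p from 0.00258 to 0.00486. Against the wildtype group, MYCN+/SNRPD3- #1 differed by 0.91 ± 0.15 (adjusted p = 0.0267) and MYCN+/SNRPD3- #2 by 0.88 ± 0.15 (adjusted p = 0.0456). The first call was lost without any 1 of the 3 MYCN-/SNRPD3+ libraries or without MYCN+/SNRPD3- #1 replicate 1 or 3 (adjusted p up to 0.103), and the second was kept only without MYCN-/SNRPD3- #1 replicate 3 (adjusted p up to 0.162 otherwise). Without replicate 3 of both MYCN+ knockdown groups, the MYCN average was 0.67 (adjusted p = 0.00922), and the differences from the wildtype group were 0.90 (adjusted p = 0.0926) and 0.81 (adjusted p = 0.166).

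The called SNHG14 intron (chr15:25087600-25088607, plus) holds SNORD116-20 and ends at the unannotated 3′ splice site printed above. Its PSI was 1.26, 1.88 and 1.97% in MYCN-/SNRPD3+, 0.812, 1.77 and 0.929% in MYCN-/SNRPD3- #1, and 1.35, 1.81 and 1.46% in MYCN-/SNRPD3- #2. It was 3.48, 2.45 and 3.24% in MYCN+/SNRPD3+, 1.87, 2.77 and 1.99% in MYCN+/SNRPD3- #1, and 2.5, 2.51 and 2.09% in MYCN+/SNRPD3- #2. The MYCN+ and MYCN- libraries overlapped, from 1.87 to 1.97%. The MYCN average was 0.54 ± 0.11 (limma, adjusted p = 0.0322). Leaving out 1 library kept the call in 6 of 18 fits, those without MYCN-/SNRPD3+ replicate 3, replicate 2 of MYCN-/SNRPD3- #1, MYCN-/SNRPD3- #2 or MYCN+/SNRPD3+, or MYCN+/SNRPD3- #1 replicate 1 or 3, with adjusted p from 0.0155 to 0.0677 over all 18. The MYCN average was 0.58 (adjusted p = 0.0713) without both replicate 3 libraries of the MYCN+ knockdown groups.

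In SNHG32 the called intron (chr6:31835452-31836298, plus) ends at the second of 2 3′ splice sites that are 4 bases apart, and both are shared with ENSG00000285565. Its PSI was 59.9, 38.4 and 45.7% in MYCN-/SNRPD3+, 55.5, 57.7 and 65.0% in MYCN-/SNRPD3- #1, and 57.7, 66.9 and 48.0% in MYCN-/SNRPD3- #2. It was 38.0, 53.9 and 0.29% in MYCN+/SNRPD3+, 54.7, 43.6 and 41.5% in MYCN+/SNRPD3- #1, and 0.361, 0.434 and 0.282% in MYCN+/SNRPD3- #2. So 14 libraries lay between 38.0 and 66.9% and 4 libraries below 0.5%. The intron ending at the first site lay between 11.6 and 56.4%. The MYCN average was -3.17 ± 0.67 (limma, adjusted p = 0.0388) and was kept only in the fits without 1 of the 3 MYCN+/SNRPD3+ libraries (adjusted p from 0.000285 to 0.0808 over all 18). It was -3.11 (adjusted p = 0.123) without both replicate 3 libraries of the MYCN+ knockdown groups. MYCN+/SNRPD3- #2 against the wildtype group gave -6.10 ± 1.17, which did not pass (adjusted p = 0.0749).

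**Figure D2:**
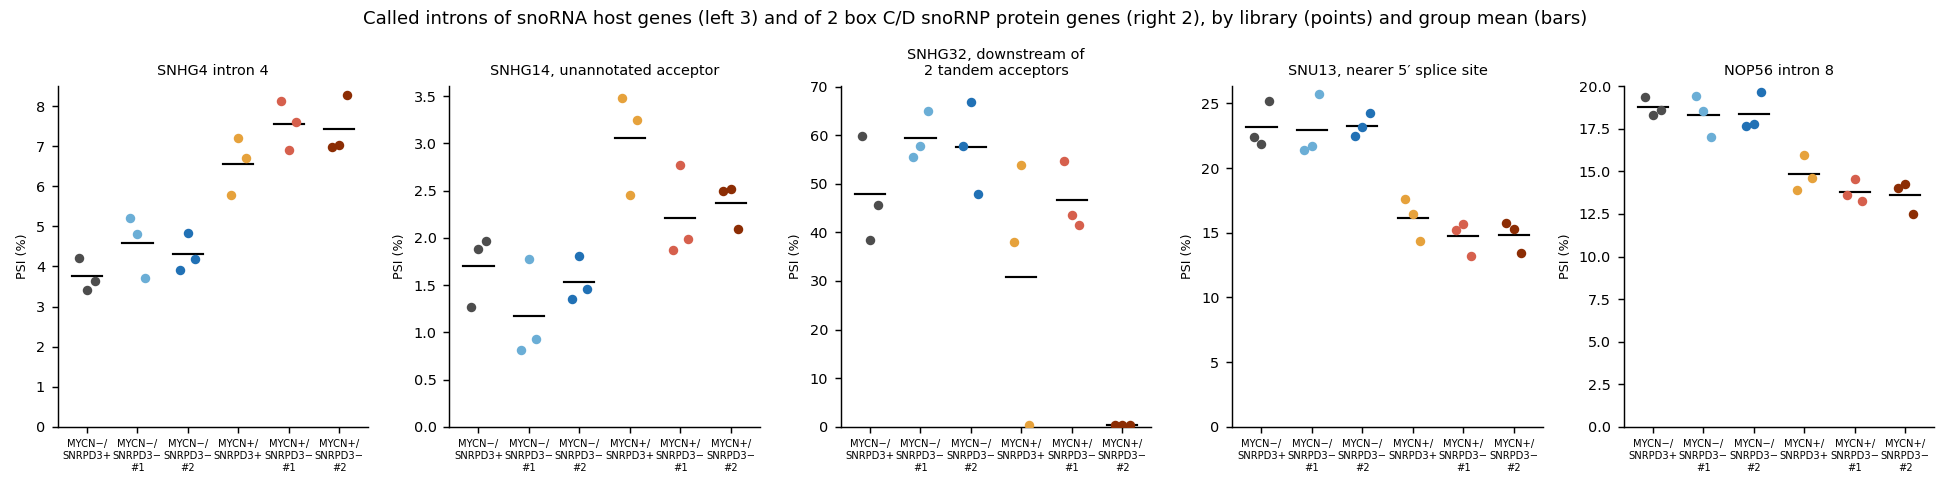
PSI (%, vertical axis) by group, with points for libraries and bars for group means of 3 libraries, for the 3 called host gene introns (left) and 1 called intron each of SNU13 and NOP56 (right). SNHG4 lies between 3.42 and 5.21% in the MYCN- libraries and between 5.78 and 8.27% in the MYCN+ libraries, and SNHG32 has 4 libraries near 0.

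Other introns with the smallest p per gene did not pass the adjusted threshold. Beside those of SNHG1 and SNHG21, given with their exons below, ZFAS1 had an intron over SNORD12B and SNORD12 (chr20:49279209-49289044) with 11.9% ± 1.23 in MYCN-/SNRPD3+, 11.2% ± 0.907 in MYCN+/SNRPD3+, 14.8% ± 0.768 and 13% ± 0.143 in MYCN- with siRNA #1 and #2, and 16.8% ± 3.64 and 14% ± 0.786 in MYCN+ with them (SD, n = 3). The knockdown average was 0.36 ± 0.10 (limma, adjusted p = 0.306). SNHG17 (chr20:38421099-38426418) had 16.7% ± 1.29 and 12.9% ± 0.355 in both control siRNA groups and 22% ± 3.96, 22.8% ± 3.52, 23% ± 7.75 and 21.5% ± 5.24 in the knockdown groups, a difference of 0.68 ± 0.18 (adjusted p = 0.289). SNHG20 (chr17:77093348-77098164) had 1.59% ± 0.548 and 0.702% ± 0.603 in the controls and 2.82% ± 2.13, 2.87% ± 1.21, 4.16% ± 0.327 and 2.01% ± 0.151 in the knockdown groups, a difference of 0.90 ± 0.26 (adjusted p = 0.344). SNHG4 (chr5:139280059-139282738), which follows the 124-base exon, had -0.50 ± 0.17 (adjusted p = 0.421).

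In the MYCN average, SNHG8 (chr4:118278793-118279388, with SNORA24) had 12.4, 14.4 and 11.9% in MYCN-/SNRPD3+ and 16.6, 15.7 and 14.7% in MYCN+/SNRPD3+, and the difference of 0.28 ± 0.07 missed the threshold (limma, adjusted p = 0.0762). In MYCN+/SNRPD3- #1 it had 17.3, 17.5 and 17%, with 0.47 ± 0.12 against the wildtype group (adjusted p = 0.128). SNHG3 (chr1:28506328-28508127) had 1.77, 1.63 and 2.08% in the wildtype group and 0.901, 0.530 and 0.672% in MYCN+/SNRPD3- #1, a difference of -0.75 ± 0.18 (adjusted p = 0.115). SNHG12 (chr1:28580647-28581093) had 11.1, 8.53 and 12.2% and, in MYCN+/SNRPD3- #2, 16.1, 15.8 and 15.8%, a difference of 0.64 ± 0.20 (adjusted p = 0.284). In these 4 pairs of groups the libraries did not overlap, although none of the differences was called. The introns were picked for a small p, as were those of SNHG4, SNU13 and NOP56 without overlap between MYCN+ and MYCN- libraries. The share of all introns without such overlap was not computed. The SNHG12 intron had 12.3, 11.5 and 13% in MYCN+/SNRPD3- #1, which overlapped the wildtype group, with 0.23 ± 0.20 (adjusted p = 0.807).

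For the interaction, the introns with the smallest p were those of SNHG28 (chr1:159840867-159841125, -10.31 ± 2.77, limma, adjusted p = 0.978) and of SNHG17, SNHG14, SNHG20 and SNHG21, with differences of 1.31 ± 0.47, 0.58 ± 0.21, -0.84 ± 0.32 and -0.30 ± 0.15 (adjusted p = 1 each). In SNHG28, MYCN+/SNRPD3+ had 96.8, 96.8 and 98.0% and the other 15 libraries lay between 0.487 and 70.0%, with exactly repeated values. In SNHG20 (chr17:77093348-77094067), MYCN+/SNRPD3+ had 11, 12.7 and 14.9%, and the other 15 libraries lay between 4.14 and 9.03%.

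Beside the called introns of SNHG32 and SNHG14, neighbouring splice sites of GAS5, ZFAS1, SNHG16, SNHG5 and SNHG25 were examined, and the use of the sites given here was called in no comparison. In GAS5 exon 7, use of the 5′ splice site of the intron with SNORD79 (chr1:173865283-173865470) was 57.2, 53.8 and 55.1% in MYCN-/SNRPD3+ and 60.1, 58.8 and 56.2% in MYCN+/SNRPD3+, with a MYCN average of 0.16 ± 0.07 (limma, adjusted p = 0.401) and a knockdown average of 0.13 ± 0.08 (adjusted p = 0.754). In ZFAS1 exon 1, the lesser site, in the intron with SNORD12C (chr20:49278739-49279103), was used at 14.9, 12.4 and 13% and at 11.5, 9.58 and 11.6%, with a MYCN average of -0.22 ± 0.08 (adjusted p = 0.239). The lesser sites of SNHG16 (3.26% ± 0.11), SNHG5 (3.82% ± 0.371) and SNHG25 (20.8% ± 9.74, each in MYCN-/SNRPD3+, n = 3) had a smallest adjusted p over all comparisons of 0.705, 0.737 and 0.816. These sites were chosen for their position, after values of the data were seen.

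Exon skipping was then measured per exon as the skipping intron over itself plus the mean of both flanking introns, for exons whose flanking introns had mean PSI within 3 times of each other. This measure and the exons described were chosen after values were seen. Of 53 such exons in the host genes 51 were tested, in 17 genes, against 12773 over all genes. An exon was counted once per intron that skips it, in the host genes and over all genes alike. Some of the exons counted are therefore the same or overlap, as in SNHG17, SNHG14 and SNHG5, and the counts are not of independent exons. With knockdown, 43 of 51 exons (84.3%) had a higher skipping share in the knockdown average, against 72.6% of all exons. In the knockdown average, 17 (33.3%) had an unadjusted p under 0.05 with higher skipping, against a background of 14.3%, and 0 with lower skipping. Without both replicate 3 libraries of the MYCN+ knockdown groups, 45 of 51 (88.2%) were higher, against 69.1% of all exons, and 15 were higher (29.4%, background 11%) and 1 lower by unadjusted p. No exon was called in it (background 0.0705%). With siRNA #1 in MYCN+, 15 were higher and 0 lower by unadjusted p (background 12.5% higher), and with siRNA #2 8 and 0 (8.17%). In MYCN- they were 5 and 1 (4.9%) and 4 and 0 (4.44%). For MYCN alone they were 0 and 1 (5.56%) and for the interaction 0 and 0 (2.83%). Against the wildtype group they were 13 and 1 (19.9%) in MYCN+/SNRPD3- #1 and 10 and 1 (15.5%) in MYCN+/SNRPD3- #2, and in the MYCN average 11 and 3 (17.3%). Leaving out SNHG14 and SNHG17, 22 of 27 exons (81.5%) were higher in the knockdown average, 12 of them by unadjusted p.

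Over the 51 exons, the mean skipping share was 43.8% ± 1.36 in MYCN-/SNRPD3+, 42.7% ± 0.452 in MYCN+/SNRPD3+, 47.4% ± 1.15 and 46.8% ± 1.64 in MYCN- with siRNA #1 and #2, and 49.6% ± 1.37 and 47.2% ± 3.19 in MYCN+ with them (SD, n = 3). Without replicate 3 the last 2 means were 49.0 and 45.3% (n = 2). In MYCN+/SNRPD3- #1, 21 of 51 exons (41.2%) had all 3 libraries above all wildtype libraries, against 23.3% of the 12773 exons, and 1 had them below (3.39% of all). In MYCN+/SNRPD3- #2 they were 10 (19.6%, against 19.8%) and 1 (3.85%). In MYCN+/SNRPD3+ they were 7 (13.7%, against 10.4%) and 4 (5.87%). In MYCN- they were 8 (15.7%, against 10.8%) and 1 (2.84%) with siRNA #1 and 7 (13.7%, against 9.18%) and 1 (3.19%) with siRNA #2. Replicate 3 was the highest library in 33 exons (64.7%) of MYCN+/SNRPD3- #1 and in 36 (70.6%) of MYCN+/SNRPD3- #2. The same share over the 12773 exons was not computed, but replicate 3 also had the highest mean over them in both groups (45.1 and 44.1%). Called were 1 exon in MYCN+/SNRPD3- #1 against the wildtype group (background 4.38%), 1 in MYCN+/SNRPD3- #2 (1.09%) and 4 in the MYCN average, 3 of them higher (5.8%). MYCN alone called 0 (0.0235%), and each knockdown comparison within 1 MYCN status and the interaction called 0, with 0 over all exons.

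**Figure D3:**
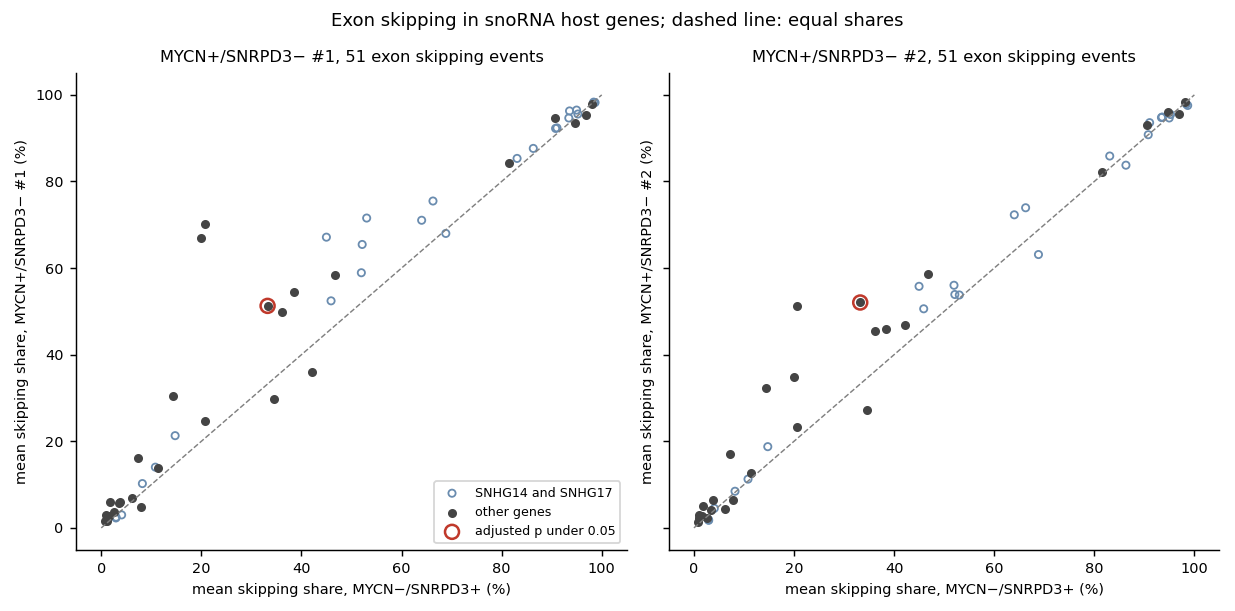
Mean skipping share (%) of each of the 51 exons in MYCN-/SNRPD3+ (horizontal axis) against MYCN+/SNRPD3- #1 and #2 (vertical axes, n = 3 libraries each). Points above the dashed line of equal shares are exons skipped more in the knockdown group.

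SNHG1 hosts box C/D snoRNAs in a row of short introns, and its exon 4 lies between the introns of SNORD27 (194 bases) and SNORD28 (336 bases). The intron that skips exon 4 (chr11:62854552-62855132) holds both snoRNAs. The skipping share was 13.8, 11.5 and 17.9% in MYCN-/SNRPD3+, 19.4, 17.2 and 22.4% in MYCN-/SNRPD3- #1, and 16.5, 14.2 and 25.3% in MYCN-/SNRPD3- #2. It was 20.2, 18.1 and 21.7% in MYCN+/SNRPD3+, 23.7, 25.8 and 42% in MYCN+/SNRPD3- #1, and 28.1, 27.8 and 41.1% in MYCN+/SNRPD3- #2. All 9 MYCN+ libraries were above all 3 wildtype libraries, and the 6 with MYCN and knockdown were the highest but for 1 library of MYCN-/SNRPD3- #2. The MYCN average was 0.80 ± 0.20 (limma, adjusted p = 0.0372). It was called in 7 of 18 fits that left out 1 library, those without replicate 3 of any MYCN- group or replicate 1 or 2 of either MYCN+ knockdown group (adjusted p from 0.0247 to 0.0763 over all 18). Without both replicate 3 libraries of the MYCN+ knockdown groups it was 0.58 (adjusted p = 0.09), and the differences from the wildtype group were 0.95 and 1.18 (adjusted p = 0.146 and 0.149). Against the wildtype group the differences were 1.32 ± 0.35 with siRNA #1 (adjusted p = 0.0518) and 1.45 ± 0.35 with siRNA #2 (adjusted p = 0.0644), and the knockdown average was 0.64 ± 0.22 (adjusted p = 0.189). None of these 3 passed. The skipping intron itself gave 1.27 ± 0.34 and 1.41 ± 0.34 against the wildtype group (adjusted p = 0.148 and 0.143) and 0.62 ± 0.21 in the knockdown average (adjusted p = 0.428).

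SNHG1 exon 6 lies between the introns of an annotated snoRNA named SNORD22 (454 bases) and of SNORD29 (184 bases). Its skipping share was 6.88, 6.72 and 8.23% in MYCN-/SNRPD3+, 9.80, 7.35 and 10.5% in MYCN-/SNRPD3- #1, and 8.02, 9.16 and 12.2% in MYCN-/SNRPD3- #2. It was 10.5, 9.05 and 10.6% in MYCN+/SNRPD3+, 13.6, 11.5 and 23.3% in MYCN+/SNRPD3- #1, and 13.2, 12.6 and 25.4% in MYCN+/SNRPD3- #2. In both exons the wildtype group had the lowest mean and the MYCN+ knockdown groups the highest, and replicate 3 was again the highest of both MYCN+ knockdown groups. No difference passed, with 1.14 ± 0.34 and 1.22 ± 0.34 against the wildtype group (limma, adjusted p = 0.0706 and 0.0882) and a MYCN average of 0.70 ± 0.20 (adjusted p = 0.0554). Without both replicate 3 libraries they were 0.80, 0.84 and 0.45 (adjusted p = 0.127, 0.17 and 0.0917).

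**Figure D4:**
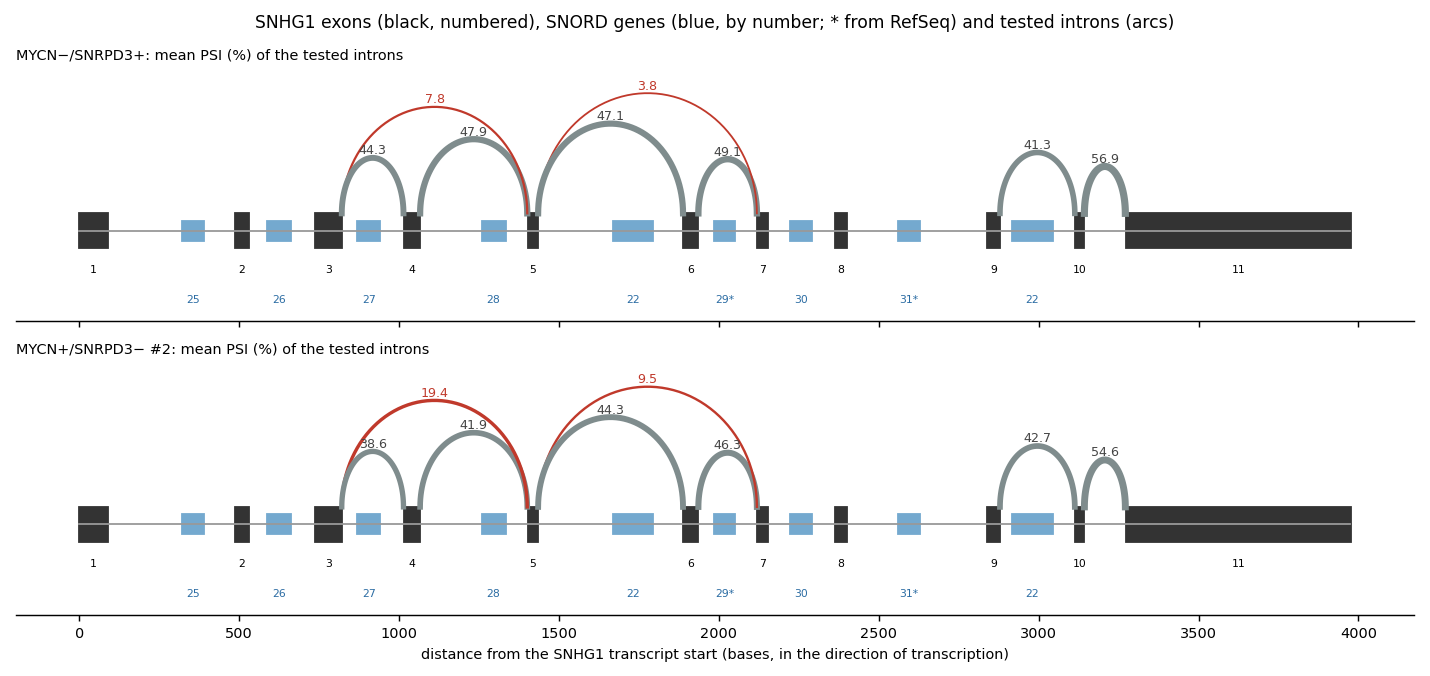
Map of SNHG1 by distance from the transcript start (bases, horizontal axis), with exons, SNORD genes and the tested introns as arcs labelled with their mean PSI (%) in MYCN-/SNRPD3+ (top) and MYCN+/SNRPD3- #2 (bottom). The arc that skips exon 4 goes from 7.77 to 19.4%.

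The 124-base SNHG4 exon is skipped by the called SNHG4 intron 4, so its skipping share and the PSI of that intron are not independent. Its skipping share was 29.6, 33.7 and 36.3% in MYCN-/SNRPD3+, 40.6, 42 and 46.2% in MYCN-/SNRPD3- #1, and 37.8, 42.4 and 48.3% in MYCN-/SNRPD3- #2. It was 37.7, 41.7 and 40.8% in MYCN+/SNRPD3+, 50.7, 43.8 and 59.3% in MYCN+/SNRPD3- #1, and 49.9, 48.9 and 57.4% in MYCN+/SNRPD3- #2. Every library outside the wildtype group was above its 3 libraries. The MYCN-/SNRPD3- groups ranged from 37.8 to 48.3%, which overlapped the 37.7 to 41.7% of MYCN+/SNRPD3+. Unlike the PSI of the intron, the skipping share was not called in the MYCN average. That average was 0.35 ± 0.13 (limma, adjusted p = 0.181) without both replicate 3 libraries of the MYCN+ knockdown groups. The differences from the wildtype group were 1.06 ± 0.25 with siRNA #1 (limma, adjusted p = 0.0323) and 1.11 ± 0.25 with siRNA #2 (adjusted p = 0.0497), and the knockdown average of 0.62 ± 0.15 was not called (adjusted p = 0.0999). The first call was lost without any 1 wildtype library or without MYCN+/SNRPD3- #1 replicate 1 or 3 (adjusted p up to 0.132), and the second was kept only without MYCN+/SNRPD3- #1 replicate 2 or 3 (adjusted p up to 0.208 otherwise). Without both replicate 3 libraries they were 0.83 (adjusted p = 0.112) and 0.95 (adjusted p = 0.138).

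The 81-base exon of SNHG5, the host of SNORD50 genes, had skipping shares of 1.68, 1.72 and 1.88% in MYCN-/SNRPD3+, 2.54, 2.15 and 3.84% in MYCN-/SNRPD3- #1, and 2.30, 1.86 and 3.38% in MYCN-/SNRPD3- #2. They were 2.08, 2.28 and 2.90% in MYCN+/SNRPD3+, 4.44, 3.45 and 10.0% in MYCN+/SNRPD3- #1, and 4.06, 3.55 and 7.24% in MYCN+/SNRPD3- #2. The 6 libraries with MYCN and knockdown were above all 6 control siRNA libraries. The difference of MYCN+/SNRPD3- #1 from the wildtype group was 1.29 ± 0.34 and just missed the threshold (limma, adjusted p = 0.051). Without both replicate 3 libraries it was 0.87 (adjusted p = 0.12), and that of MYCN+/SNRPD3- #2 was 0.83 (adjusted p = 0.195).

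ZFAS1 exon 4 was skipped at 36.1, 37.0 and 35.4% in MYCN-/SNRPD3+, 39.2, 37.8 and 47.9% in MYCN-/SNRPD3- #1, and 38.5, 38.0 and 44.1% in MYCN-/SNRPD3- #2. It was skipped at 35.4, 38.7 and 39.8% in MYCN+/SNRPD3+, 45.7, 46.3 and 57.6% in MYCN+/SNRPD3- #1, and 40.1, 42.6 and 53.4% in MYCN+/SNRPD3- #2. All 12 knockdown libraries were above the 3 wildtype libraries, yet siRNA #1 in MYCN+ against the wildtype group was not called (limma, 0.79, adjusted p = 0.0833). Without both replicate 3 libraries it was 0.58 (adjusted p = 0.205). A 99-base exon of SNHG16 (chr17:76558945-76559043) was skipped at 46.5, 48.7 and 45.0% in the wildtype group, 43.5, 48.7 and 51.4% in MYCN+/SNRPD3+, 54.0, 53.0 and 68.3% in MYCN+/SNRPD3- #1, and 56.7, 52.2 and 67.1% in MYCN+/SNRPD3- #2 (0.68 and 0.69, adjusted p = 0.162 and 0.202 against the wildtype group). These differences were 0.38 and 0.44 (adjusted p = 0.368 and 0.373) without both replicate 3 libraries. Other exons of SNHG16 and ZFAS1 were lower in the same fit. A 227-base SNHG16 exon (chr17:76558374-76558600) gave -0.44 and -0.41 (adjusted p = 0.317 and 0.418). A 67-base ZFAS1 exon (chr20:49281752-49281818) gave -0.35 and -0.11 (adjusted p = 0.552 and 0.904). Of the 51 exons, 41 and 34 were higher against the wildtype group in that fit (80.4 and 66.7%), against 66.1 and 64.3% of all exons. A 56-base exon of SNHG21 (chr15:82756730-82756785) was skipped at 29.4, 47.8 and 38.2% in the wildtype group, 42, 42.5 and 43.9% in MYCN-/SNRPD3- #1, and 43.1, 34.9 and 40.8% in MYCN-/SNRPD3- #2. It was skipped at 35.3, 38.7 and 42.2% in MYCN+/SNRPD3+, 55.0, 54.4 and 54.0% in MYCN+/SNRPD3- #1, and 46.4, 39.2 and 52.1% in MYCN+/SNRPD3- #2. Only with siRNA #1 in MYCN+ did all 3 libraries lie above the wildtype group. The differences from that group were 0.93 ± 0.27 with siRNA #1 and 0.44 ± 0.27 with siRNA #2 (adjusted p = 0.0621 and 0.42), and the skipping intron gave 0.91 ± 0.25 and 0.43 ± 0.25 (adjusted p = 0.164 and 0.672). The exon gave 0.95 and 0.27 (adjusted p = 0.144 and 0.748) without both replicate 3 libraries.

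**Figure D5:**
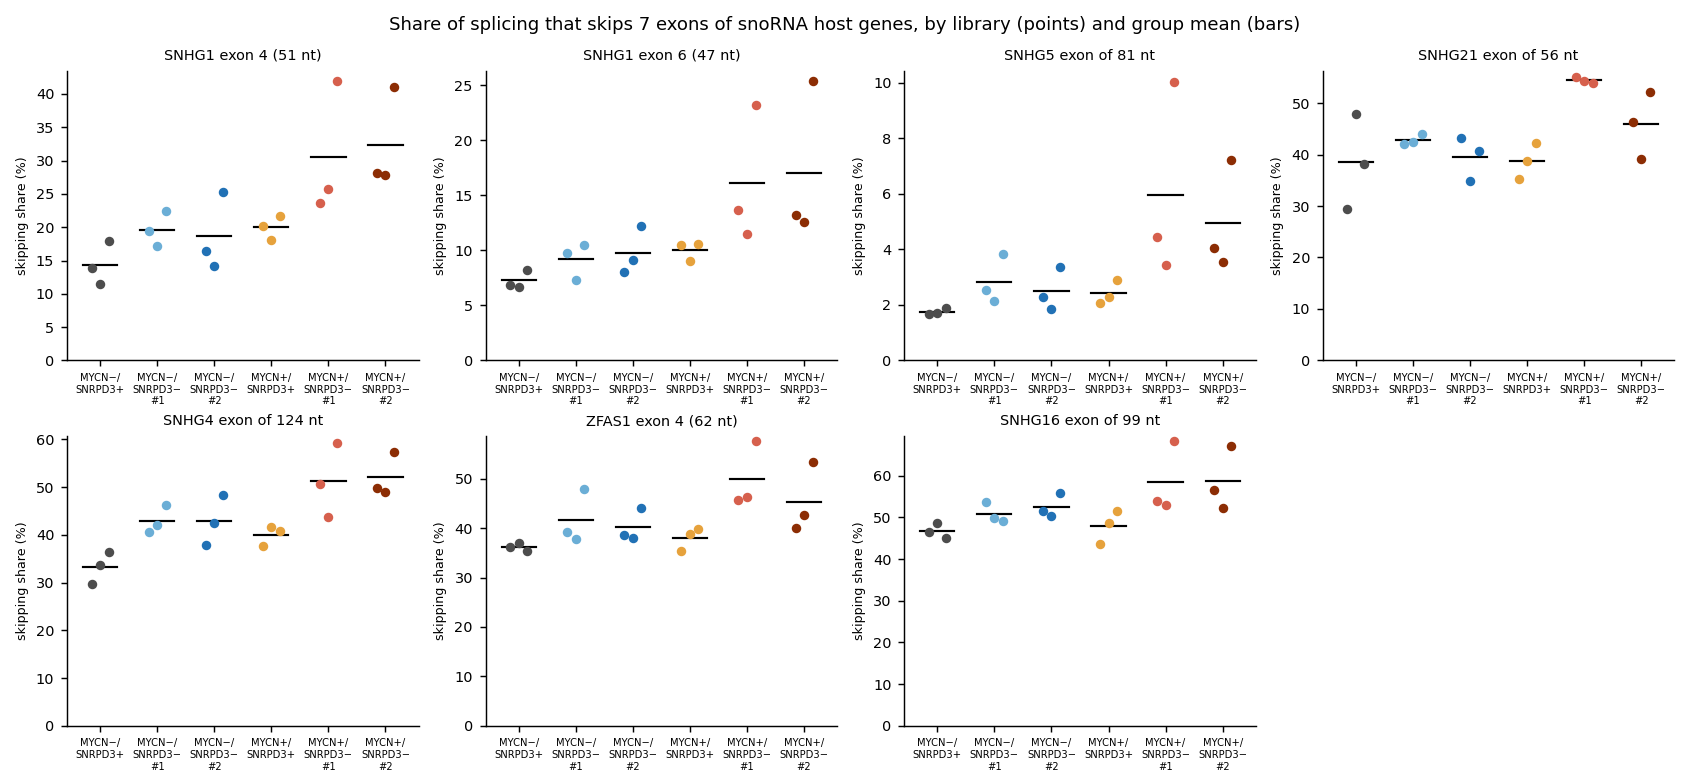
Skipping share (%, vertical axes, each from 0) of 7 exons of SNHG1, SNHG5, SNHG4, ZFAS1, SNHG16 and SNHG21 in the 6 groups, with points for libraries and bars for group means of 3 libraries. In SNHG1 exon 4, replicate 3 of MYCN+/SNRPD3- #1 and #2 reaches 42 and 41.1%. The exons drawn were chosen after values were seen, and exons with lower skipping are not drawn.

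SNHG14 gave 15 of the 51 exons and 2 of the 4 calls of the MYCN average. A 134-base exon (chr15:25086331-25086464) was skipped less with MYCN, at 95.8, 93.0 and 96.0% in MYCN-/SNRPD3+ and 91.7, 92.3 and 90.2% in MYCN+/SNRPD3+, with a MYCN average of -0.81 ± 0.20 (limma, adjusted p = 0.0315). In the knockdown groups it was skipped at 96.5 to 99.3% in MYCN- and 93.9 to 98.1% in MYCN+, with a knockdown average of 0.98 ± 0.21 (adjusted p = 0.0833). The call was kept in 9 of 18 fits that left out 1 library, those without any library of MYCN-/SNRPD3- #1, MYCN-/SNRPD3- #2 replicate 1, MYCN+/SNRPD3- #2 replicate 3, or replicate 2 of any other group (adjusted p from 0.0175 to 0.0626). Without both replicate 3 libraries of the MYCN+ knockdown groups it was -0.83 (adjusted p = 0.0794). A 112-base exon (chr15:25100779-25100890) was skipped more with MYCN, at 64.4, 67.0 and 67.4% and at 74.2, 68.4 and 74.8%, with 0.46 ± 0.12 (adjusted p = 0.037), kept only without replicate 2 of 1 of the 3 MYCN+ groups (adjusted p from 0.0188 to 0.0743), and it was 0.37 (adjusted p = 0.112) without both replicate 3 libraries.

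The proteins that bind and mature snoRNAs were examined as a list of 25 genes, in which 166 introns were tested. FBL is the methyltransferase, and NOP56, NOP58 and SNU13 are the other core proteins of box C/D particles, while DKC1, NHP2, GAR1 and NOP10 form the box H/ACA core. In the MYCN average 6 introns (3.61%, background 1.23%) were called, 3 higher and 3 lower, in SNU13, NOP56 and NOP58. They are 3 pairs, 1 in each gene, of introns that share a splice site. In each pair 1 intron was higher and the other lower, and since PSI is a share of the cluster, these are not independent calls. In MYCN+/SNRPD3- #1 against the wildtype group 1 was called (0.602%, background 0.278%), in SNU13 (-0.77, limma, adjusted p = 0.0495). In the knockdown average 0 were called (background 0.0242%). FBL, NOP10 and ZNHIT3 had no tested intron, and of DKC1, NHP2 and GAR1 6, 3 and 6 introns were tested with 0 called.

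SNU13 (chr22:41680365-41682355) had a PSI of 22.4, 21.8 and 25.2% in MYCN-/SNRPD3+, 21.4, 21.7 and 25.7% in MYCN-/SNRPD3- #1, and 22.4, 23.2 and 24.2% in MYCN-/SNRPD3- #2. It had 17.6, 16.4 and 14.4% in MYCN+/SNRPD3+, 15.2, 15.7 and 13.2% in MYCN+/SNRPD3- #1, and 15.7, 15.3 and 13.4% in MYCN+/SNRPD3- #2. The 9 MYCN+ libraries were all lower than the 9 MYCN- libraries, with a MYCN average of -0.71 ± 0.08 (limma, adjusted p = 0.00121). The longer SNU13 intron of the pair (chr22:41680365-41688793) rose from 76.3% ± 1.77 in MYCN-/SNRPD3+ to 83.3% ± 1.63 in MYCN+/SNRPD3+ (SD, n = 3). Its MYCN average was 0.69 ± 0.08 (adjusted p = 0.00109). NOP56 intron 8 (chr20:2656035-2656400), which overlaps SNORD86, went from 18.8% ± 0.546 in MYCN-/SNRPD3+ to 14.8% ± 1.06 in MYCN+/SNRPD3+ (SD, n = 3), with a MYCN average of -0.45 ± 0.07 (adjusted p = 0.00588) and no overlap between MYCN- and MYCN+ libraries. The shorter intron (chr20:2656215-2656400), which does not overlap SNORD86, rose from 15.9% ± 1.25 to 21.9% ± 2.09, with 0.53 ± 0.08 (adjusted p = 0.00442). In NOP58 the intron overlapping SNORD70B (chr2:202278003-202282350) fell from 88.9% ± 0.823 to 85.5% ± 0.912, with -0.39 (adjusted p = 0.0482), and the shorter one (chr2:202278330-202282350) rose from 7.95% ± 0.282 to 11.1% ± 0.494, with 0.44 (adjusted p = 0.0186).

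Other genes with a snoRNA inside an intron numbered 337, with 2680 tested introns. In them the MYCN average called 42 introns, 24 higher and 18 lower, which is 1.57% (background 1.23%). These include the called introns of NOP56 and NOP58 described above. Some share a splice site, such as 2 of UBAP2L with 0.59 and -0.59, and are not independent calls. MYCN+/SNRPD3- #1 against the wildtype group called 5 introns (0.187%, background 0.278%) in 4 genes, CHD3, COP1, EDEM2 and SIPA1L1. MYCN+/SNRPD3- #2 called 1 (0.0373%, background 0.11%), in CHD3. The knockdown average called 0 (background 0.0242%).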

How the data were processed

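RNA of 18 libraries in 6 groups was sequenced from TruSeq stranded mRNA libraries. Per the labels and the methods, the authors aligned reads to hg38 (STAR 2.5.0a, SAMtools 1.3.1) and ran leafcutter on the spliced reads. What the authors deposited for each library is PSI, a fraction of the spliced reads of a cluster. These fractions sum to 1 within a cluster and no reads are given, so depth is unknown and no interval was computed. The authors' deposited FDR and delta PSI of their own comparisons were not used.

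Introns were placed on GENCODE release 44 (GRCh38), and snoRNAs absent from it were added from RefSeq GRCh38. Introns with a mean PSI from 0.01 to 0.99 were fitted with limma 3.58.1 (R 4.3.3, lmFit and eBayes, 1 mean per group, all 18 libraries), with an offset of 0.01 and Benjamini-Hochberg adjustment over all 152722 introns, called under 0.05. Tables and figures were made with Python 3.11.15, pandas 2.3.3, numpy 2.4.6, pysam 0.24.0 and matplotlib 3.10.9. The fit was tested on simulated data. All 18 deposited columns were matched to libraries by their labels.

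Named introns were those called in any comparison, the 5 with the smallest p, 1 per gene, for the main contrasts, and the intron nearest to 50% in each gene. The members and lists were chosen with earlier results of these data known. Alternatives were other offsets and scales, PSI filters, eBayes options, a replicate block, the groups compared alone, a stricter threshold and leaving out libraries. The exon skipping share, its limit of 3 times between flanking introns, and the fits without both libraries of highest skipping were added after seeing the data. The results for 1 exon counted among the calls are not reported here.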

Additional observations from a re-analysis of the deposited data

How the results depend on the processing

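Counts below are introns and exons of the host genes called by limma, beside 1 and 1 introns (MYCN+/SNRPD3- #1 and #2 against MYCN-/SNRPD3+) and 3 (MYCN average), and 1, 1 and 4 exons, with 0 exons in the knockdown average. None of the 31 differences recomputed under the alternatives, those of the introns with the smallest p and of the called introns and exons, changed its direction in any alternative run. The SNHG4 intron stayed called in the MYCN average under all 29 alternatives, while each other call was lost under some. An offset of 0.001 gave 2 exons for #1 and 0 for #2, and an offset of 0.05 gave 0 introns for #2 and 3 exons for #1. On the PSI scale there were 0 introns for #2, 5 in the MYCN average, 3 exons for #1 and 1 in the knockdown average. A mean PSI from 0.05 to 0.95 gave 2 exons for #1. With trend and robust eBayes there were 0 introns for #1 and for #2 and 0 exons for #2. Introns with 18 different values gave 6 introns in the MYCN average and 3 exons for #1. Fits of only the groups compared gave 0 introns and 0 exons for #1 and 0 exons for #2. An adjusted p under 0.01 left 0, 0 and 1 introns and 0, 0 and 0 exons. Without introns shared with other genes there were 0, 0 and 1 introns. Flanking introns of any ratio gave 4, 0 and 7 exons. Without both libraries of highest skipping, chosen after seeing the data, there were 0 introns and 0 exons for #1 and #2, and 0 exons in the MYCN average.

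Leaving out each library in turn gave 0 to 1 introns for #1, for #2, for siRNA #2 within MYCN+ and for the interaction, 1 to 4 in the MYCN average, and 0 to 4, 0 to 2 and 0 to 7 exons. The replicate block gave 2 introns for #1 and 6 in the MYCN average, and 6, 4, 3 and 7 exons for #1, #2, the knockdown average and the MYCN average. The labels do not say whether equal replicate numbers mark a shared batch. Deviations of same-numbered libraries correlated at a mean of 0.00615 (-0.0509 to 0.0638), against -0.00307 for libraries of different numbers. Of 18 libraries, 14 correlated best with their own number. Whether the numbers mark a batch was not tested. Depth was unknown, so calls could not be weighed by reads.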
